A study of Ovis aries with 9 samples.

Results

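The 18S rRNA is the RNA of the small ribosomal subunit, and its fragments are part of the small RNA of ram sperm. The fragments described here are the sequences whose annotation in the deposited tables holds the name 18S-rRNA and no name of a sheep miRNA, a tRNA or 28S rRNA. They numbered 29205 distinct sequences, out of 3309646 distinct sequences in the series, and 18S-rRNA was the only name each of them carried. The OVER library held 170772 reads of 14449 such sequences, the RES library 253020 reads of 17201 and the CON library 204690 reads of 15541.

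The libraries are small RNA of F1 ram sperm, and the groups are named by feeding: over feeding (OVER), restricted feeding (RES) and standard feeding (CON). The title of the series places the feeding in the mothers' gestation, all animals are labelled WT, and the source of every sample is semen whose sperm were washed in a detergent buffer that lyses somatic cells. No source used here names the age or breed of the rams or the number of animals behind a sample. The labels list 3 samples per group, but their 3 tables were identical in sequences and reads, so each group was counted as 1 library.

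The differences below therefore lack any replicate check and any test. Each interval treats reads as independent and is meant for counting error only. Reads without molecular identifiers are not independent molecules, so the intervals can be too narrow even for that error. The tables do not show if such a library stems from a single ram or from several. Total depth was 8287937 reads in OVER, 13160116 in RES and 9983895 in CON. The OVER library stands apart in size, with a mean read length over all its reads of 23.3 nt, against 27.2 nt in RES and 28.5 nt in CON. Of 10 marker miRNAs listed for germ cells, epithelium and blood cells, 4 carry a name in the tables. Only oar-mir-191 of those listed for germ cells is among them. It stood at 6524 reads per 1000000 reads of the library (RPM) in OVER, 7571 in RES and 4272 in CON. Whether its reads come from germ cells was not tested, and miR-34c and miR-449a have no named reads. The 3 epithelial markers, miR-200a, miR-200b and miR-200c, summed to 1094 RPM in OVER, 134 in RES and 464 in CON. None of the 4 blood cell markers has a named read. The search was by name only, so a marker without named reads is not shown to be absent. The part of other cells in the values below was not tested.

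In the cell, 18S rRNA is transcribed by RNA polymerase I within a long precursor that also holds 5.8S and 28S rRNA, is cut free by nucleases, and is folded with ribosomal proteins into the subunit that reads the mRNA. Near its 3′ end lies helix 44, a long stem whose base forms part of the decoding site, and towards its middle lies the variable V4 region, an expansion segment of eukaryotes. Sperm shed most of their cytoplasm and ribosomes. Small RNAs derived from rRNA are a known part of the sperm RNA of mammals.

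Since no reference sequence of sheep 18S rRNA was used, the reads themselves were joined wherever they shared 14 bases. The 3 long stretches that resulted overlapped at their ends and gave 1 sequence of 1868 nt, on which 92.0% of the OVER, 94.3% of the RES and 92.5% of the CON 18S reads lay without a mismatch. With up to 2 mismatches all but 2 reads found a place, and every one of the 1868 positions was covered in each library. The sequence was built from these same reads, so these figures are no check of it. Outside the 18S name, no more than 5 reads per library of 18 nt or longer lay on this sequence without a mismatch. Positions below count from 1 at its 5′ end. Reads with the same first 15 bases were called a start family and are named by the position of their first base.

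The finding turns on a short stretch near the 3′ end, in helix 44. It is shown from position 1740 to 1795, joined from overlapping reads and written with T for U as in the tables. The capitals mark the commonest 18S fragment of the RES and CON libraries.
region 1740 to 1795: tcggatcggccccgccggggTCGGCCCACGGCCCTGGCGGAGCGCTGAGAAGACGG

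Leading families of this stretch are shown by their commonest sequence, with capitals for the bases that lie inside that fragment. They are given to show how their ends relate to it.
start 1740: tcggatcggccccgccgggg
start 1760: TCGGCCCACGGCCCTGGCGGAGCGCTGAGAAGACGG
start 1773: CTGGCGGAGCGCTGAGAAGACGG
start 1774: TGGCGGAGCGCTGAGAAGACGGtcgaac

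The fragment at 1740 ends at base 1759, directly before the first base of the fragment at 1760. The fragment at 1773 lies wholly inside the one at 1760 and shares its last base, 1795. The one at 1774 begins inside it and runs past its end.

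The other leading stretches lie in the V4 region. These are shown with capitals for the 15 bases that define the family, because both pairs end on a shared base, 702 for the first and 769 for the second.
start 674: TCGTAGTTGGATCTTgggagcgggcgggc
start 675: CGTAGTTGGATCTTGggagcgggcgggc
start 740: CTTGCCTCTCGGCGCcccctcgatgctctt
start 741: TTGCCTCTCGGCGCCccctcgatgctctt

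The commonest sequences at 740, 741 and 1740 carry the flag for no match to the genome in the tables, although they lie without a mismatch on the joined sequence. Reads with that flag made up 12.98% of 18S reads in OVER, 8.86% in RES and 11.1% in CON.

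Taken as a whole, 18S rRNA held nearly the same part of each library. It made up 2.06% of all OVER reads (exact Clopper-Pearson 95% interval 2.05 to 2.07%), 1.92% of RES reads (1.92 to 1.93%) and 2.05% of CON reads (2.04 to 2.06%). The ratio was 1.005 for OVER over CON, with a log2 interval of -0.002 to 0.016, and 0.938 for RES over CON. In bulk libraries, fewer cells of a type and less RNA per cell cannot be told apart. As a share of all reads, 18S thus hardly differed, while the fragments that made it up did. With other denominators or read lengths the ratio ran from 0.871 to 1.15 for OVER over CON. For RES over CON it ran from 0.642 to 1.034.

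Other rRNA species were further from level. The 28S share was 3.62% in OVER, 4.13% in RES and 2.99% in CON. Mitochondrial rRNA held 1.65% in OVER, 4.32% in RES and 1.85% in CON, and 18S reads were 24.5% of all rRNA reads in OVER, 15.5% in RES and 24.2% in CON.

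The size of 18S fragments was the first difference. Their mean length was 22.4 nt in OVER, 28.2 nt in RES and 30.3 nt in CON. The commonest length was 20 nt in OVER, with 9.12% of the 18S reads, and 36 nt in both other libraries, with 12.6% in RES and 20.3% in CON. Reads of 15 to 20 nt were 40.3% of 18S reads in OVER, 12.9% in RES and 8.02% in CON, and those of 34 to 42 nt were 1.97% in OVER, 26.6% in RES and 40.1% in CON. The RES profile lay between the other libraries in both ranges. Over all reads of the library, the 15 to 20 nt range held 29.6% in OVER, 10.3% in RES and 5.98% in CON, so short reads were commoner in OVER far beyond 18S.

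**Figure D1:**
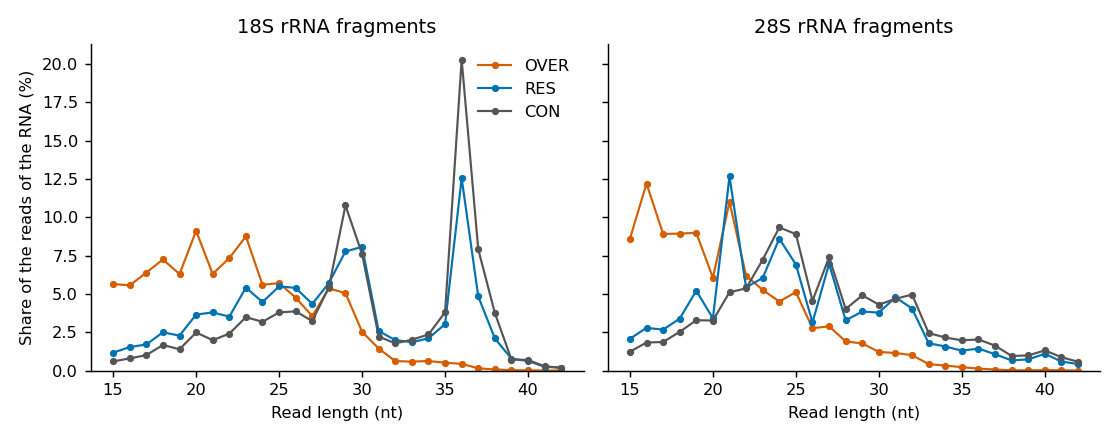
Share of the 18S reads (left) and of the 28S reads (right) at each read length from 15 to 42 nt, one line per library. The peak at 36 nt, 12.6% of 18S reads in RES and 20.3% in CON, is missing in OVER and in 28S.

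The peak at 36 nt belonged to 18S more than to the rest of the library. At exactly 36 nt, 18S reads were 6.24% of all OVER reads of that length (5.83 to 6.69%), 20.4% of RES reads (20.2 to 20.6%) and 22.8% of CON reads (22.7 to 23.0%). At 29 to 33 nt, where fragments of tRNAs lie, 18S held 1.06% in OVER, 1.033% in RES and 1.06% in CON. The lengths of 36 to 38 nt held 0.705% of 18S reads in OVER, 19.5% in RES and 32.0% in CON. Among 28S reads they held 0.260% in OVER, 3.20% in RES and 4.65% in CON.

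Reads of 18S were spread over more fragments in OVER and gathered in few in CON. The commonest sequence held 3.24% of 18S reads in OVER, 10.7% in RES and 18.2% in CON. The 10 commonest held 14.9% in OVER, 27.3% in RES and 42.3% in CON, and the 100 commonest 40.9% in OVER, 50.1% in RES and 60.3% in CON. As an effective number of sequences (the inverse Simpson number, which equals the count when all are equally common) this was 242 in OVER, 59.8 in RES and 22.9 in CON. The 28S fragments did not follow that order, with effective numbers of 262 in OVER, 84.5 in RES and 173 in CON. Sequences seen once were 43.8% of the distinct 18S sequences in OVER, 41.3% in RES and 45.7% in CON. Of the distinct sequences, 5839 (19.99%) were found in all 3 libraries, but these held 88.5% of 18S reads in OVER, 88.8% in RES and 89.4% in CON.

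Along the molecule, reads were concentrated near the 3′ end in every library. Reads that start at positions 1701 to 1800 were 45.2% of 18S reads in OVER, 47.5% in RES and 51.6% in CON. In RPM this window stood at 9313 in OVER, 9127 in RES and 10580 in CON. The next window in each library, 601 to 700, held 5.73% in OVER, 8.06% in RES and 13.8% in CON. No other window of 100 nt held more than 6.40% in any library. Cover at the highest base exceeded the median base by 89.4 times in OVER, 119 times in RES and 135 times in CON. The share of the 3′ window was thus close between the libraries, while the fragments inside it were not.

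**Figure D2:**
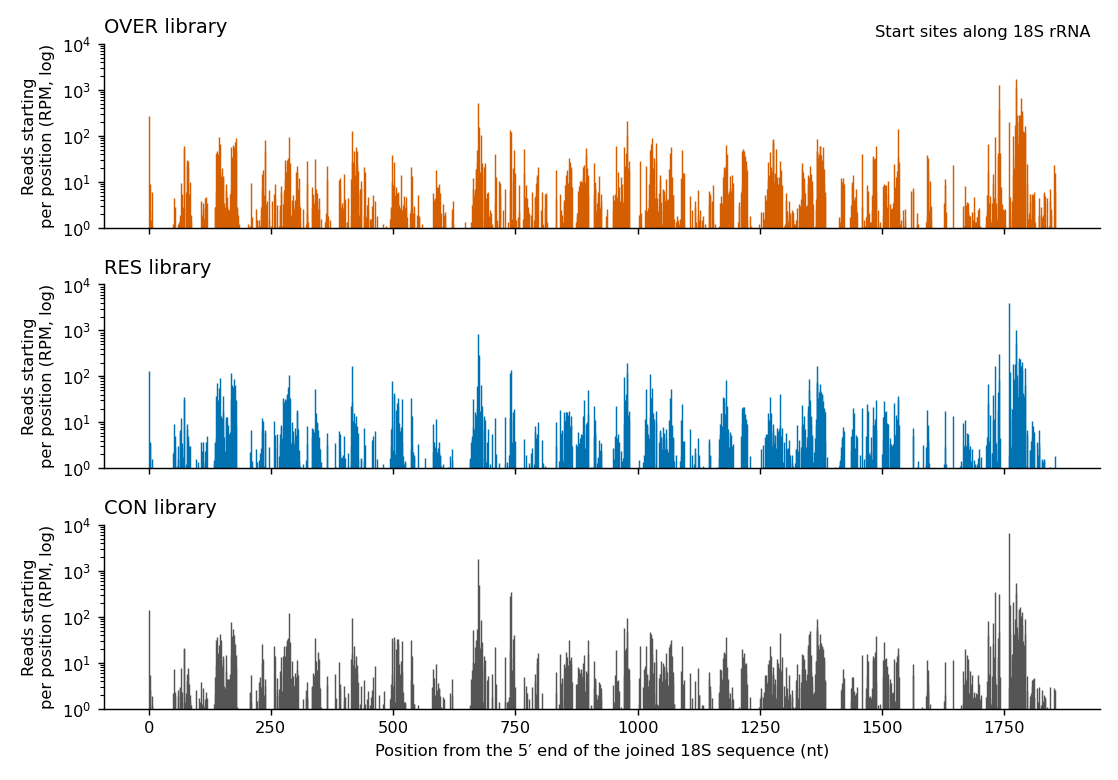
Reads that start at each position of the joined 18S sequence, in RPM on a log axis from 1 RPM, one panel per library. The tallest line stands at 1773 in OVER and at 1760 in RES and CON, and shorter groups of starts lie at 674 and 740.

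The family at 1760 was the leading 18S fragment of the RES and CON libraries and was low in OVER. It had 1639 reads (198 RPM) in OVER, 52232 reads (3969 RPM) in RES and 65872 reads (6598 RPM) in CON. That is 0.960% of 18S reads in OVER, 20.6% in RES and 32.2% in CON. The log2 ratio was -5.06 for OVER over CON (-5.13 to -4.99), a level 33.4-fold lower, and -4.33 for OVER over RES. For RES over CON it was -0.73 (-0.75 to -0.72), 1.66-fold lower.

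The fragment was lower in OVER also among reads of its own length. Of all 36 nt reads of the library, it made up 4.32% in OVER, 17.7% in RES and 20.8% in CON. With reads of 25 to 40 nt only, the log2 ratio was -3.90 for OVER over CON and -0.50 for RES over CON. Starts 1761 and 1762, shorter by a base or a pair of bases at the 5′ end, went the same way. The family at 1761 stood at 4.34 RPM in OVER, 121 RPM in RES and 177 RPM in CON, and that at 1762 at 1.57 RPM in OVER, 21.7 RPM in RES and 41.9 RPM in CON.

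Inside the family, the 3′ ends took a few fixed places. Reads of 36, 37 and 38 nt, which end at bases 1795 to 1797, were 42.2% of the family in OVER, 77.6% in RES and 87.7% in CON. Reads of 30 nt, which end at base 1789, were 43.5% in OVER, 19.8% in RES and 9.62% in CON. The fragments of this family in OVER were thus more often the shorter ones, and RES again lay between.

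The families at 1773 and 1774, which begin further inside the same stretch, were higher in OVER. Both stood above CON by at least 2-fold in OVER and by less in RES. The family at 1773 had 14055 reads (1696 RPM) in OVER, 13028 reads (990 RPM) in RES and 5371 reads (538 RPM) in CON. Its log2 ratio was 1.66 for OVER over CON (1.61 to 1.70) and 0.88 for RES over CON (0.83 to 0.93). The family at 1774 stood at 1160 RPM in OVER, 529 RPM in RES and 330 RPM in CON, a log2 ratio over CON of 1.81 for OVER and 0.68 for RES. Of the reads from 1773, 36.7% in OVER, 25.5% in RES and 24.6% in CON ended at base 1795, the end of the 36 nt fragment, and 13.9% in OVER, 23.7% in RES and 20.1% in CON at base 1801. The start sites 1773 and 1774 are neighbours and share most of their bases, so they are not separate observations. In reads of 25 to 40 nt only, the log2 ratio for OVER over CON was 2.30 at 1773 and 2.65 at 1774.

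**Figure D3:**
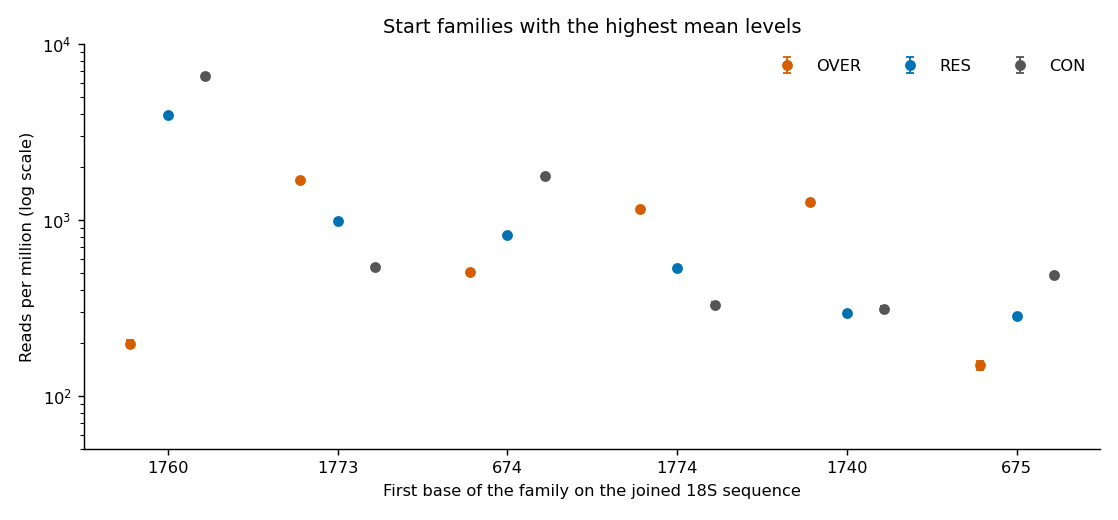
Level of 6 of the 10 start families with the highest mean RPM, by the first base of the family, on a log axis, with exact Poisson 95% intervals of the counts (mostly smaller than the points). OVER is below CON at 1760, 674 and 675 and above it at the other 3, and RES lies between OVER and CON in 5 of the 6.

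Counted over a single base, the opposite differences of this stretch offset each other only in part. Base 1789, the most covered one in RES and CON, was covered at 6634 RPM in OVER, 7949 RPM in RES and 9287 RPM in CON. Of the reads over it, those that start at 1760 were 2.69% in OVER, 50.2% in RES and 71.7% in CON. Those that start at 1773 or later were 92.6% in OVER, 41.1% in RES and 21.2% in CON. In RPM the reads from 1773 onwards stood at 6145 in OVER, 3267 in RES and 1968 in CON. Hence the stretch was present in all 3 libraries, with its 5′ end mostly 13 bases or more past 1760 in OVER and mostly at 1760 in CON.

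**Figure D4:**
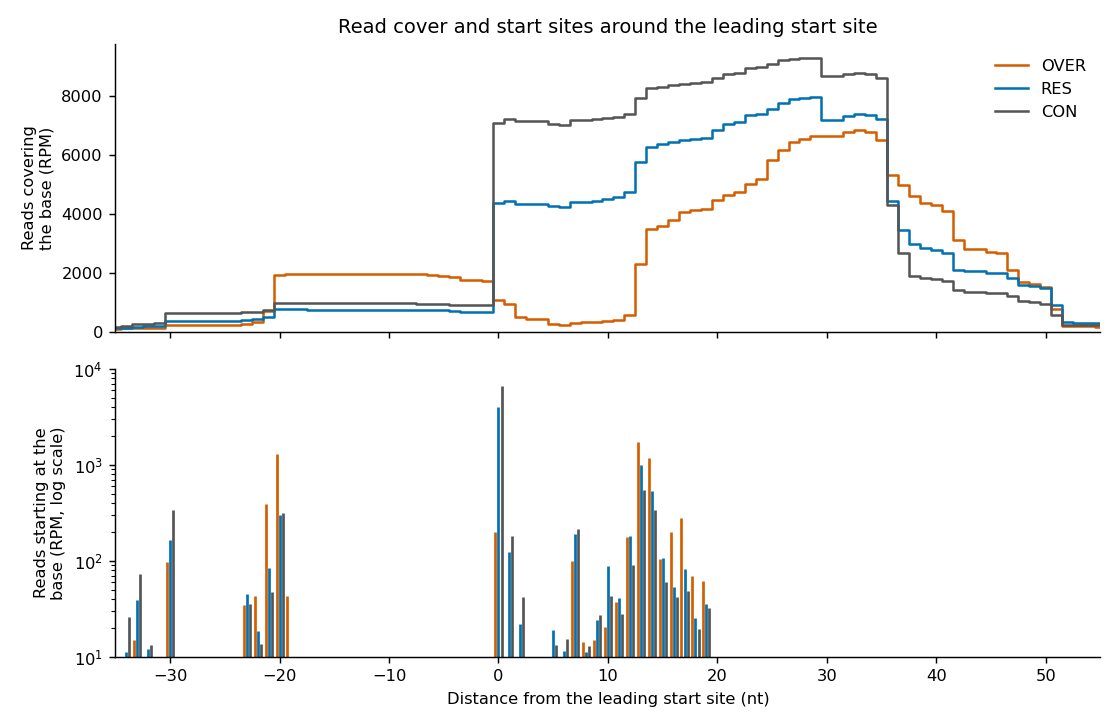
Reads that cover each base (top, RPM) and that start at each base (bottom, RPM on a log axis from 10 RPM, for starts up to 19 nt after) around the start at 1760, which is set to 0. In OVER cover steps up at -20, falls from 0 and rises again from 13 onwards, while in RES and CON it steps up at 0.

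The site before base 1760 was an end as well as a start. Reads whose last base is 1759 stood at 842 RPM in OVER, 340 RPM in RES and 508 RPM in CON. Reads that start at 1760, with mismatches allowed, stood at 201 RPM in OVER, 4017 RPM in RES and 6692 RPM in CON. Reads that run through the site with 5 bases or more on either side stood at 236 RPM in OVER, 158 RPM in RES and 226 RPM in CON. By the lower of the mean RPM of ends and of starts, this was the first of all sites on the molecule.

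The upstream neighbour was higher in OVER. The family at 1740, whose commonest member is 20 nt long and ends at 1759, had 10502 reads (1267 RPM) in OVER, 3888 reads (295 RPM) in RES and 3118 reads (312 RPM) in CON. Its log2 ratio was 2.02 for OVER over CON (1.96 to 2.08). For RES over CON it was -0.08 (-0.15 to -0.01), and that sign turns when reads are scaled to 18S reads (0.01). Its mean length hardly differed, at 20.7 nt in OVER, 20.8 nt in RES and 20.9 nt in CON.

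The leading V4 families were lower in both diet libraries, while others there, such as that at 768 described below, were higher in OVER. The family at 674, the second of the CON library, had 4165 reads (503 RPM) in OVER, 10775 reads (819 RPM) in RES and 17627 reads (1766 RPM) in CON. Its log2 ratios were -1.81 for OVER over CON (-1.86 to -1.76) and -1.11 for RES over CON (-1.14 to -1.07). The family at 675 stood at 149 RPM in OVER, 283 RPM in RES and 488 RPM in CON.

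Among families with a mean of at least 10 RPM, the pair at 740 and 741 was among the 5 lowest of RES over CON. The other 3 have a commonest sequence that matches the joined sequence only with a mismatch. Whether those 3 come from sheep or from another organism was not tested. The family at 741 stood at 123 RPM in OVER, 135 RPM in RES and 348 RPM in CON, with log2 ratios of -1.50 for OVER and -1.36 for RES over CON. The family at 740 stood at 130 RPM in OVER, 115 RPM in RES and 278 RPM in CON. In reads of 25 to 40 nt only, the OVER ratios over CON shrink to -0.68 at 674, -0.32 at 741 and 0.10 at 740, where the sign turns, while the RES ratios stay at -0.90, -1.15 and -1.07.

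Over all start families with at least 100 reads in the libraries compared, OVER differed from CON more widely than RES did. Of 407 families compared for OVER and CON, out of 5842 in all, 147 stood above CON by 2-fold or more (36.1%) and 61 below it (15%). Among the families of all other annotated sequences, formed the same way, 32.1% of 3070 were higher and 21.5% lower, and among 28S families 32% of 812 were higher and 15.5% lower. The 18S counts lie near that background. For RES and CON, 60 of 439 were at least 2-fold higher in RES (13.7%) and 29 lower (6.61%), against 29.3% and 10.2% of 3512 other families and 15.1% and 6.12% of 882 28S families. For OVER and RES, 129 of 457 stood above RES by 2-fold or more (28.2%) and 74 below it (16.2%), against 23.4% and 30.8% of 3598 other families and 24.8% and 19% of 932 28S families.

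These splits depend on the scale. The median log2 ratio of the 18S families was 0.51 for OVER over CON in RPM and -0.01 with edgeR's TMM scaling. TMM is a trimmed mean of log ratios and assumes that most families are level. Its factors and those of DESeq2 were computed from the 18S families alone. A level median and an even split under them were thus largely built in. The background was not counted under these scalings. With TMM the split was 103 higher and 98 lower for OVER over CON, 38 and 39 for RES over CON, and 95 and 117 for OVER over RES. With DESeq2 size factors it was 109 and 92, 35 and 44, and 100 and 106. The families at 1760, 674 and 675 were below CON, and those at 1773 and 1774 above it, under all 4 scalings in both diet libraries.

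The OVER ratio followed the length of the fragments. Families with a mean length of at least 30 nt in CON had a median log2 ratio of -0.72 (64 families), those of 25 to 30 nt of 0.34 (183), those of 20 to 25 nt of 1.19 (126) and those below 20 nt of 1.86 (34). As a description over 407 families, Pearson's r between length and ratio was -0.56, and over 439 families it was -0.05 for RES over CON. The CON counts enter both measures, and neighbouring families share reads of the same stretch. Among families of at least 30 nt, the lowest ratios were those of starts 1760 to 1762.

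**Figure D5:**
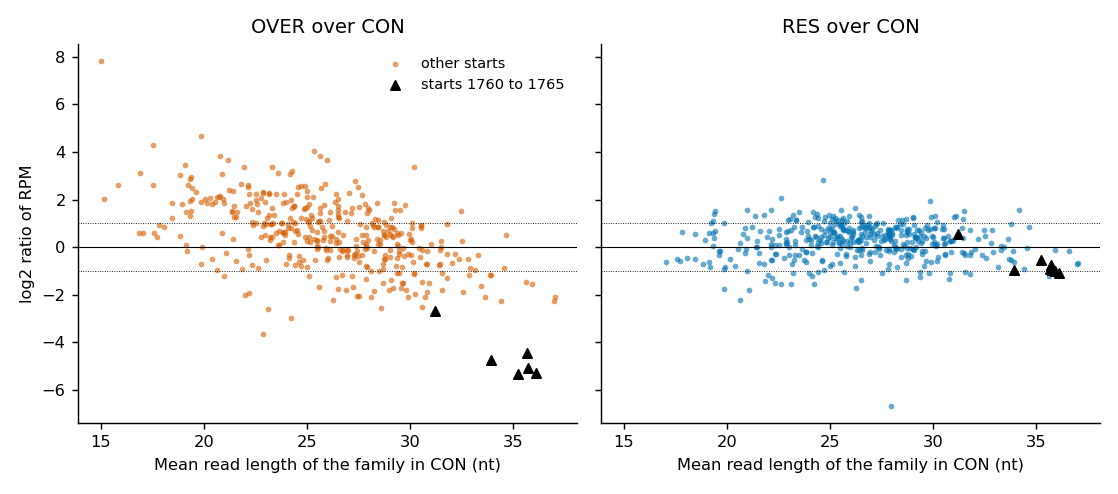
log2 ratio of RPM for OVER over CON (left, 407 families) and RES over CON (right, 439 families) against the mean read length of the family in CON, with dotted lines at 2-fold and triangles for the starts 1760 to 1765. The points fall with length in OVER (Pearson's r -0.56) and show no such slope in RES (-0.05).

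Families with the largest ratios outside the 3′ stretch, among those with a mean of at least 10 RPM, were rarer, and some of those in OVER consisted of short reads. These sequences are shown as the ends of that range, with capitals for the 15 bases that define the family.
start 239: GGTCAGCCTCCTCCCggcccc
start 1277: ACGGACAGGATTGACagatt
start 518: AAAAATAACAATACAggactcttt
start 1441: TCTTAGAGGGACAAGtggcgtt

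The family at 239 had 670 reads (80.8 RPM) in OVER, 85 reads (6.46 RPM) in RES and 32 reads (3.21 RPM) in CON, a log2 ratio of 4.66 for OVER over CON (4.15 to 5.22). The family at 1277 stood at 79.2 RPM in OVER, 6.61 RPM in RES and 5.61 RPM in CON (3.82, 3.42 to 4.24). Its commonest sequence and that of the family at 1276 both end at base 1296. The family placed at 1283 with a mismatch, given below, lies in the same stretch, so these are not separate observations. The family at 894 stood at 53.3 RPM in OVER, 5.62 RPM in RES and 3.81 RPM in CON. The family at 768 stood at 50.2 RPM in OVER, 3.95 RPM in RES and 4.91 RPM in CON. Nearly all OVER reads of these families were shorter than 25 nt. Reads of 25 to 40 nt were 0 of 670 in OVER and 1 of 32 in CON at 239, and 1 of 416 in OVER and 0 of 49 in CON at 768. They were 4 of 656 in OVER and 27 of 56 in CON at 1277, 8 of 577 in OVER and 26 of 55 in CON at 1276, and 1 of 442 in OVER and 5 of 38 in CON at 894. So few reads give no ratio at those lengths.

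On the lower side, the family at 518 stood at 2.41 RPM in OVER, 32.5 RPM in RES and 30.05 RPM in CON. Its log2 ratio for OVER over CON was -3.64 although its mean length in CON was 22.9 nt, so it was low in OVER without being long. Among families with a mean of at least 10 RPM, the highest of RES over CON was that at 1441, with 20.3 RPM in RES and 4.91 RPM in CON (2.05, 1.604 to 2.52). Under the same limit those at 279, 1175, 153 and 1223 followed, at log2 ratios of 1.52 to 1.64. Those at 153 and 1175 were level between OVER and CON, with log2 ratios of -0.01 and 0.00. The family at 274 stood at 3.26 RPM in OVER, 33.5 RPM in RES and 13.9 RPM in CON, so that OVER lay below and RES above CON.

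Some named families have a commonest sequence that lies on the joined sequence only with a mismatch, and these sequences are not shown. One such family, placed at 1004, had 238 reads in OVER, 0 in RES and 230 in CON. With 3 reads in place of 0, its log2 ratio for RES over CON was -6.66 (-8.95 to -5.09), a level 101-fold lower. Its commonest sequence carries the flag for no match to the genome, as do those of the families placed at 1059 and 1065. Those at 1059 and 1065 both hold T in place of C at position 1074, a change given again under other observations. They overlap and are not separate observations. Whether the families at 1004, 1059 and 1065 come from sheep or from another organism was not tested. Another family with a mismatch, placed at 1283, had 373 reads in OVER, 2 in RES and 2 in CON, all near 15 nt long. Its log2 ratio for OVER over CON was 7.81, with a wide interval of 5.95 to 10.9.

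The first base of 18S fragments was often T. It was T in 32.4% of reads in OVER, 43.2% in RES and 56.2% in CON, while T makes up 21.5% of the joined sequence. Without the family at 1760, the shares were 31.7% in OVER, 28.4% in RES and 35.5% in CON. Among 28S reads T was first in 20.6% in OVER, 23.5% in RES and 13.6% in CON. Bases G and C made up 60.4% of 18S read bases in OVER, 62.3% in RES, 65.6% in CON and 56.3% of the joined sequence.

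Without the family at 1760, the libraries were closer in some measures and further apart in others. The remaining 18S reads stood at 20407 RPM in OVER, 15257 RPM in RES and 13904 RPM in CON. Their mean length was 22.3 nt in OVER, 26.4 nt in RES and 27.7 nt in CON. Their effective number of sequences was 239 in OVER, 301 in RES and 98.9 in CON. The order of the libraries in length thus did not rest on this family, while that of OVER and RES in concentration did.

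Both ends of the joined sequence held reads, which follows from how it was built. Those that start at position 1 stood at 270.4 RPM in OVER, 133 RPM in RES and 141 RPM in CON. Those that end at position 1868 stood at 44.6 RPM in OVER (370 reads), 3.12 RPM in RES (41 reads) and 5.11 RPM in CON (51 reads).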

How the data were processed

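Small RNA of sperm was sequenced in 3 groups. The deposited values are counts of reads per distinct sequence, with length, genome flag and annotation per the file headers, not normalized. Size selection and the NEBNext kit are given per the labels' protocols, and edgeR is named per the submitters' processing notes. No source used here names an aligner, an annotation tool or a genome build. The tables of a group differed in 0 read counts and 0 memberships, so values stand side by side, as designed for that case, in place of an edgeR test.

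Here counts were scaled to all reads of a library (RPM), and ratios have exact binomial 95% intervals, a count of 0 set to 3 reads. Reads sharing 14 bases were joined into contigs, contigs by end overlaps (11 and 6 bases), and members placed with up to 2 mismatches. Named families are the 10 highest by mean RPM and the 5 highest and lowest ratios per comparison with 100 reads and 10 RPM. Some families that this rule takes are not reported here. The members and lists were chosen with earlier results of these data known. The scripts were tested on simulated data. Python 3.11.15, edgeR 4.0.16 and DESeq2 1.42.0 were used.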

Additional observations from a re-analysis of the deposited data

Results flagged for a closer look

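Reads annotated as antisense to 18S rRNA belong to no comparison above, and their number was above the 3 reads that a count of 0 allows. There were 15 such reads in OVER (1.81 RPM), 17 in RES (1.29 RPM) and 27 in CON (2.70 RPM). Nothing was tested on them.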

How the results depend on the processing

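No paired analysis was possible because the 3 tables of a group are 1 library, and for the same reason no replicate could be left out. The ratio of 18S shares was 1.005 for OVER over CON. It was 0.921 of annotated reads, 1.01 of rRNA reads, 0.948 at 25 to 40 nt, 0.871 at 21 to 42 nt, 0.936 with genome-matching sequences and 1.15 with CON reads weighted to the read lengths of the other library. For RES over CON it was 0.938, and in the same order 0.799, 0.642, 0.951, 0.931, 0.871 and 1.034, the last above 1. For OVER over RES it was 1.07, then 1.15 of annotated and 1.58 of rRNA reads, 0.997 at 25 to 40 nt and 0.935 at 21 to 42 nt, both below 1, and 1.17 with RES reads weighted to the OVER lengths. The cause was not tested. Mean length with genome-matching sequences was 22.2 nt in OVER, 28.3 nt in RES and 30.5 nt in CON, and over distinct sequences 22.3 nt in OVER, 26.04 nt in RES and 26.7 nt in CON. The effective number was 53.96 in OVER, 19.8 in RES and 8.74 in CON for start families, and 86.3 in OVER, 29.5 in RES and 14.9 in CON for sequences at 25 to 40 nt. Thinning to the smallest library left the order as it was.

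Of the counts of families at least 2-fold higher or lower, those that moved by over 1.5 times were these. The number compared differs between settings, so it is given with the share. The background was not counted at these settings. For OVER over CON, 98 of 407 were lower with TMM (24.1%) and 92 with DESeq2 size factors (22.6%). There were 363 higher and 173 lower from 20 reads, 1638 and 1397 from 1 read, 48 and 30 at 25 to 40 nt, 90 higher by the first 18 bases and 226 higher as single sequences. For RES over CON, 38 were higher with TMM, and 35 higher and 44 lower with DESeq2. There were 142 and 103 of 987 from 20 reads (14.4% and 10.4%) and 1178 and 1417 of 4641 from 1 read (25.4% and 30.5%). Single sequences gave 120 and 48 of 452 (26.5% and 10.6%), and reads of 25 to 40 nt 11 lower of 271 (4.06%). For OVER over RES, 117 of 457 were lower with TMM (25.6%). There were 322 and 180 of 1053 from 20 reads (30.6% and 17.1%) and 2067 and 321 of 4988 from 1 read (41.4% and 6.44%). Single sequences gave 217 and 118 of 533 (40.7% and 22.1%). The first 18 bases gave 71 higher of 392 (18.1%), and reads of 25 to 40 nt 37 higher of 212 (17.5%). Leaving out the starts 1760 to 1765, chosen after seeing the data, gave 147 and 55 of 401, 60 and 28 of 430, and 129 and 70 of 453. At this depth 100 reads are 12.1 RPM in OVER, 7.60 RPM in RES and 10.02 RPM in CON.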

Other observations

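At some positions the reads carried a pair of bases in different shares. Among positions covered by at least 500 reads in each library, the 8 with the highest share of mismatching reads in CON were read again. Only reads that reach at least 4 bases past the position were used. Except for T3C, they also had to start upstream of it. C1074T, where the joined sequence has the first of these bases at position 1074 and the read the second, stood at 31.8% of 1363 reads in OVER, 29.9% of 1899 in RES and 65% of 1540 in CON. Of the reads changed there, 59.2% in OVER, 85.2% in RES and 87.7% in CON carried the flag for no match to the genome, and at the other 7 positions 0 changed reads carried it. Whether the changed reads at position 1074 come from sheep or from another organism was not tested.

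T1299G stood at 48.4% in OVER, 20.3% in RES and 26.6% in CON. T3C, near the 5′ end, stood at 54.9% in OVER, 54.9% in RES and 36.5% in CON. G877C stood at 22.2% in OVER, 13.4% in RES and 28.9% in CON. C441A stood at 7.11% in OVER, 17.7% in RES and 26.3% in CON, and T157C at 7.37% in OVER, 4.69% in RES and 16.6% in CON. G795A and C349T were seen in 0 such reads in OVER and RES, and in 0 and 2 in CON, although they held 39.3% and 24.7% of all CON reads over their positions. Of the reads with 1 mismatch, 21.9% in OVER, 22.8% in RES and 19.4% in CON had it at their last base.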
